A study of Sus scrofa with 20 samples.

Results

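The tricarboxylic acid (TCA) cycle enzymes described here are 9 genes, CS, IDH2, IDH3A, IDH3B, OGDH, SUCLA2, SUCLG2, FH and MDH2, of 13755 genes that the array's annotation names. They were chosen by gene symbol. All 9 were matched, by 23 probe sets in all, of which 22 passed the filter on dim signals and were tested. A gene is represented by its probe set with the highest mean over all arrays, and each of these 9 probe sets passed the filter. The RNA came from the longissimus, the long back muscle, of 20 female pigs, with 1 Affymetrix Snowball array for each animal. The animals formed 2 groups of 10 by residual feed intake (RFI), the feed eaten beyond what growth and maintenance predict, so low RFI pigs are the more feed-efficient ones. The labels name no breed, age, diet, litter or batch, and no treatment that the groups share. Each array was taken as a separate animal, from the stated group sizes. The design asks which muscle transcripts differ between efficient and inefficient pigs.

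The TCA cycle is the mitochondrial ring of reactions that burns acetyl-CoA, made from sugar, fat and amino acids, to carbon dioxide and hands the electrons to the respiratory chain. Citrate synthase feeds acetyl-CoA into the ring, the dehydrogenases of isocitrate, 2-oxoglutarate and malate release electrons as NADH or NADPH, and succinyl-CoA ligase makes a nucleoside triphosphate directly. In skeletal muscle these enzymes are more abundant in oxidative, mitochondria-rich fibres than in glycolytic ones, and citrate synthase activity is a common measure of mitochondrial content.

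Values are log2 signals, so a difference of 1 is a doubling of the signal, and signals of different probe sets are not compared with each other. Array medians lay between 2.79 and 2.89. The tissue label was checked against fixed markers: the skeletal muscle genes ACTA1 and CKM had mean signals of 13.9 and 13.2. The heart hormone gene NPPA stood at 1.65 and albumin (ALB) at 2.25, below 3.64, the mean of the 69 probe sets that measure background on this array. The heart troponin TNNI3 stood at 4.22, and the liver genes APOA1 and TTR at 5.36 and 3.69, all above that mean. The mean background control signal differed between arrays, from 3.46 to 3.90 in low RFI and from 3.47 to 3.89 in high RFI. Its group means differed by 0.050 (permutation test, 2-sided, p = 0.454). Of the 4 arrays with the highest background, 3 were from low RFI (replicates 7, 9 and 10) and 1 from high RFI (replicate 9). This signal moved strongly with several of the enzymes, so differences are also given adjusted for it and after those 4 arrays were dropped. Replicate numbers only name the animals. In whole muscle, fewer cells of a type and less RNA per cell cannot be told apart.

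No TCA cycle enzyme differed between low and high RFI pigs beyond the spread among animals. The signal was lower in low RFI for 8 of the 9 and higher for IDH3B alone, by amounts between 0.016 and 0.40. In limma's test over 33405 probe sets 0 of the 9 passed a Benjamini-Hochberg adjusted p of 0.05, against a background of 0% of all tested probe sets. At an unadjusted p under 0.05 the count was also 0 of 9, with 3.91% of all tested probe sets at that level. A permutation test of each enzyme (2-sided) gave p-values from 0.103 for FH to 0.870 for IDH2. The median difference of the 9 was -0.092, and that of 12255 genes with a tested probe set was -0.0028. Over those genes 50.8% had a lower mean in low RFI. The count of lower enzymes stayed at 8 with the background covariate, where the median difference was -0.048. It fell to 5 without the 4 arrays of highest background, where the median difference was -0.044. For all 9 the values of the groups overlapped.

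**Figure D1:**
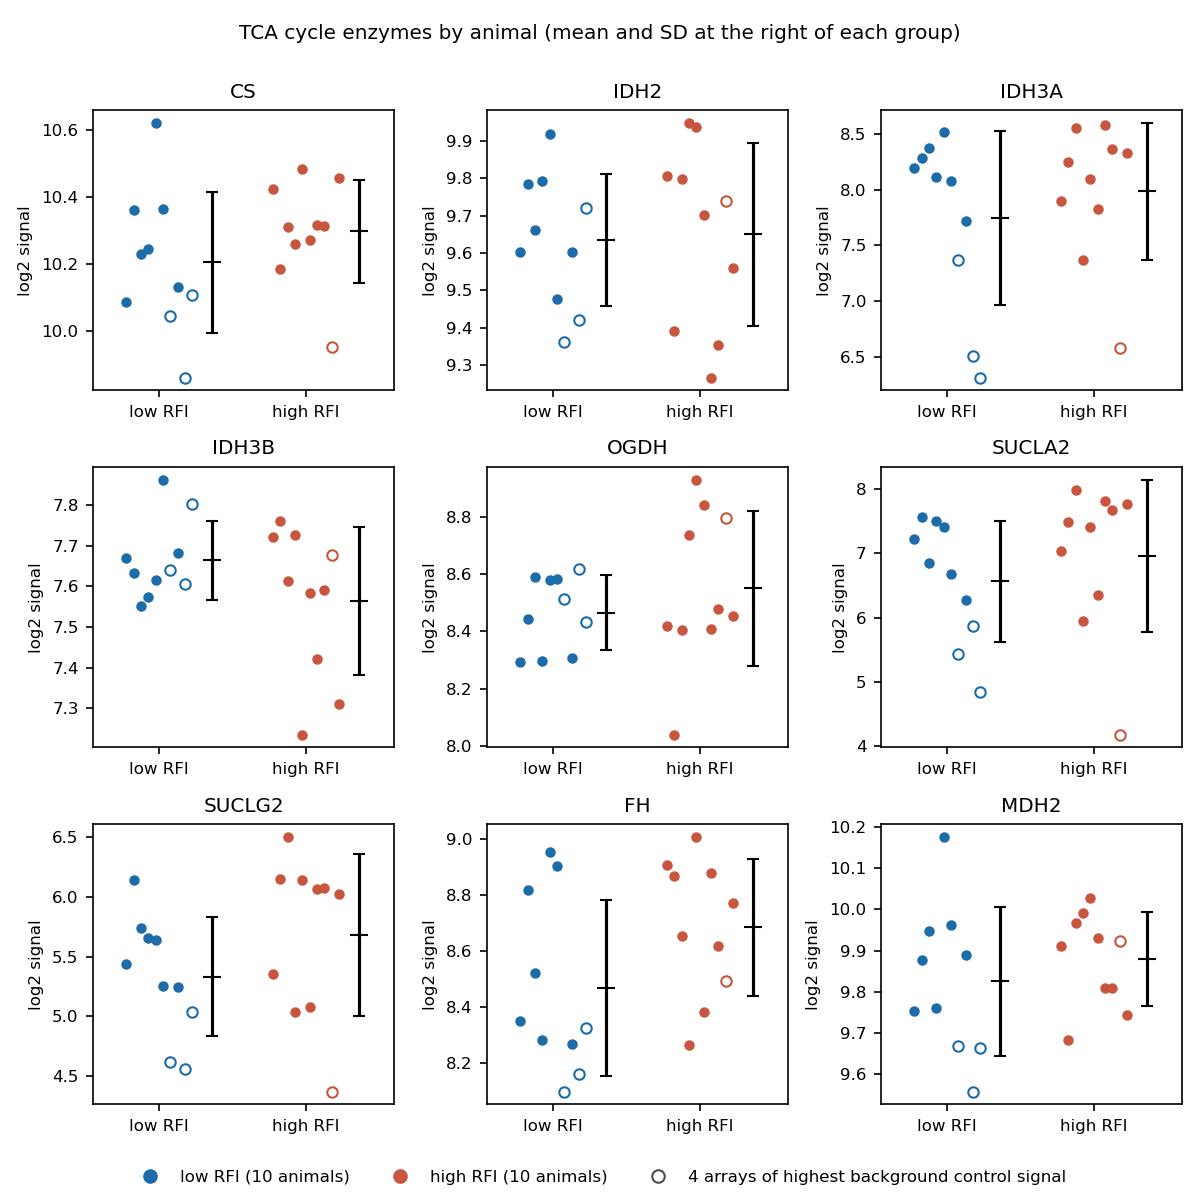
Log2 signal of each of the 9 enzymes in every animal, with the mean and SD of each group of 10 at its right, and open circles for the 4 arrays of highest background control signal. SUCLA2, IDH3A and SUCLG2 spread widely with the open circles at the bottom, while every other enzyme spans less than 1 log2 unit. The groups overlap in every panel.

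Citrate synthase (CS) joins acetyl-CoA and oxaloacetate in the entry reaction of the cycle. Its signal ran from 9.86 through a median of 10.18 to 10.62 in low RFI and from 9.95 through 10.31 to 10.48 in high RFI. The highest animal of all (low RFI replicate 5) and the lowest (low RFI replicate 9) belonged to the same group. Mean signals were 10.20 ± 0.21 (SD, n = 10) and 10.30 ± 0.15 (SD, n = 10), a difference of -0.092 ± 0.092 (SE; 95% interval -0.28 to 0.098; limma adjusted p = 0.998). The interval allows a low to high RFI signal ratio between 0.822 and 1.07. The difference was -0.048 ± 0.077 with the background covariate and -0.044 when the 4 arrays of highest background were dropped. Single animals moved it as well, to -0.054 without low RFI replicate 9 and -0.14 without low RFI replicate 5. CS was measured by a single probe set.

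Isocitrate is oxidised in mitochondria by IDH2, which uses NADP, and by IDH3, an NAD-dependent enzyme whose catalytic subunit is IDH3A and one of whose regulatory subunits is IDH3B. IDH2 differed by -0.016 ± 0.10 (SE), the smallest difference of the 9, with 9.36 to 9.92 in low RFI (median 9.63) and 9.27 to 9.95 in high RFI (median 9.72). Its sign turned under several settings, among them cyclic loess normalization (0.014) and the mean of all 5 of its probe sets (0.016). Its other 4 probe sets differed by 0.0090 to 0.039.

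IDH3A varied far more between animals. Its signal ran from 6.31 through a median of 8.10 to 8.52 in low RFI and from 6.58 through 8.18 to 8.59 in high RFI, so low RFI replicates 9 and 10 and high RFI replicate 9 lay more than 1 log2 unit below their group's median. The group means of 7.75 ± 0.78 (SD, n = 10) and 7.99 ± 0.62 (SD, n = 10) differed by -0.24 ± 0.29 (SE; 95% interval -0.83 to 0.36; limma adjusted p = 0.998). With the background signal as a covariate the difference was -0.025 ± 0.14, and without the 4 arrays of highest background it was 0.042 ± 0.16. It was -0.40 without high RFI replicate 9, -0.10 without low RFI replicate 9 and -0.079 without low RFI replicate 10. Its second probe set, at a mean of 2.24, lay below the background mean on all arrays.

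IDH3B was the only one of the 9 with a higher mean in low RFI, at 7.66 ± 0.098 (SD, n = 10) against 7.56 ± 0.18 (SD, n = 10). The values ran from 7.55 through 7.64 to 7.86 in low RFI and from 7.23 through 7.60 to 7.76 in high RFI. The 3 lowest animals, all high RFI, lay below the whole low RFI range. The difference was 0.099 ± 0.081 (SE; 95% interval -0.067 to 0.27; limma adjusted p = 0.998), and 0.063 without high RFI replicate 5. With the background covariate it was 0.077 ± 0.077, and without the 4 arrays of highest background 0.10 ± 0.094. Its second probe set, with a mean of 7.14 and likewise well above the background mean, differed by -0.036 ± 0.078, so the probe sets did not share a direction. Whether the subunits IDH3A and IDH3B responded differently was asked of their within-animal difference. It was 0.34 lower in low RFI (permutation test, 2-sided, p = 0.337, adjusted p = 0.674 over 2 subunit pairs), and 0.10 lower with the background covariate.

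OGDH is the substrate-binding subunit of the 2-oxoglutarate dehydrogenase complex, which forms succinyl-CoA and is a main control point of the cycle. Its signal ran from 8.29 through 8.48 to 8.62 in low RFI and from 8.04 through 8.47 to 8.93 in high RFI, so high RFI held both the lowest and the highest animals. The mean difference was -0.086 ± 0.10 (SE; 95% interval -0.30 to 0.12; limma adjusted p = 0.998). With the background covariate it was -0.11 ± 0.099, and without the 4 arrays of highest background -0.082 ± 0.12. Single animals moved it, to -0.14 without high RFI replicate 2, -0.044 without replicate 5 and -0.053 without replicate 6 of that group. The SD of 0.27 in high RFI was about double the 0.13 in low RFI, a difference in spread that was not tested. The mean of its 3 probe sets differed by 0.028, because the dimmest of them was 0.23 ± 0.093 higher in low RFI (limma unadjusted p = 0.0222, adjusted p = 0.998). That probe set had a mean of 1.92, below the background mean on all arrays, and was the only 1 of the 22 tested probe sets of the 9 genes with an unadjusted p under 0.05.

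Succinyl-CoA ligase pairs a common alpha subunit with SUCLA2, the beta subunit of the ATP-forming enzyme, or with SUCLG2, that of the GTP-forming enzyme. Both had the largest mean differences of the set and wide spreads. SUCLA2 ran from 4.84 through 6.77 to 7.57 in low RFI and from 4.17 through 7.45 to 7.99 in high RFI. Its 4 lowest animals were those of highest background signal, high RFI replicate 9 lowest of all. The span from lowest to highest animal was 14.1-fold on the signal scale, and only 0.46% of tested probe sets had a larger SD. Group means were 6.57 ± 0.94 (SD, n = 10) and 6.97 ± 1.18 (SD, n = 10), which gives a difference of -0.40 ± 0.43 (SE; 95% interval -1.30 to 0.50; limma adjusted p = 0.998). It was -0.075 ± 0.21 with the background covariate, -0.71 ± 0.35 without high RFI replicate 9 and -0.21 ± 0.42 without low RFI replicate 10. Without the 4 arrays of highest background it was -0.20 ± 0.28.

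SUCLG2 ran from 4.56 through 5.35 to 6.14 in low RFI and from 4.37 through 6.05 to 6.50 in high RFI. Most high RFI animals lay above the low RFI median, but the lowest animal of all was again high RFI replicate 9. The difference was -0.35 ± 0.25 (SE; 95% interval -0.85 to 0.16; limma adjusted p = 0.998). The background covariate left -0.17 ± 0.13, and without high RFI replicate 9 it was -0.49 ± 0.22 (limma unadjusted p = 0.0340, adjusted p = 0.791). Without the 4 arrays of highest background it was -0.24 ± 0.21. The within-animal difference of SUCLA2 and SUCLG2 was 0.053 lower in low RFI, with SDs of 0.61 and 0.58 (permutation test, 2-sided, p = 0.833, adjusted p = 0.833 over 2 subunit pairs). With the background covariate it was 0.095 higher, so no shift between the ATP-forming and GTP-forming subunits was detectable here.

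FH, fumarase, hydrates fumarate to malate, and MDH2, the mitochondrial malate dehydrogenase, closes the ring by restoring oxaloacetate. FH had the smallest unadjusted p of the 9. It ran from 8.10 through 8.34 to 8.95 in low RFI and from 8.26 through 8.71 to 9.01 in high RFI. Group means of 8.47 ± 0.31 (SD, n = 10) and 8.68 ± 0.25 (SD, n = 10) differed by -0.22 ± 0.13 (SE; 95% interval -0.48 to 0.044; limma unadjusted p = 0.0986, adjusted p = 0.998). Its second bright probe set, with a mean of 7.85, differed by -0.16 ± 0.12, while another at 3.45, near background, differed by 0.038. The mean of all 4 probe sets differed by -0.087, and the value with the background covariate was -0.17 ± 0.11. Without the 4 arrays of highest background the FH difference was -0.12 ± 0.14.

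MDH2 and IDH3B were the least variable of the 9, each with an SD of 0.15 over the 20 animals, and 98.2% of tested probe sets had a larger SD than MDH2. Values ran from 9.56 through 9.82 to 10.18 in low RFI and from 9.68 through 9.92 to 10.03 in high RFI, so the high RFI range lay inside the low RFI range. The difference was -0.054 ± 0.082 (SE; 95% interval -0.22 to 0.12; limma adjusted p = 0.998). Its 3 other probe sets, all bright, differed by -0.054, -0.019 and -0.057. Dropping the 4 arrays of highest background turned the sign, to 0.035 ± 0.086. The difference was -0.093 without low RFI replicate 5 and -0.024 without low RFI replicate 9.

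**Figure D2:**
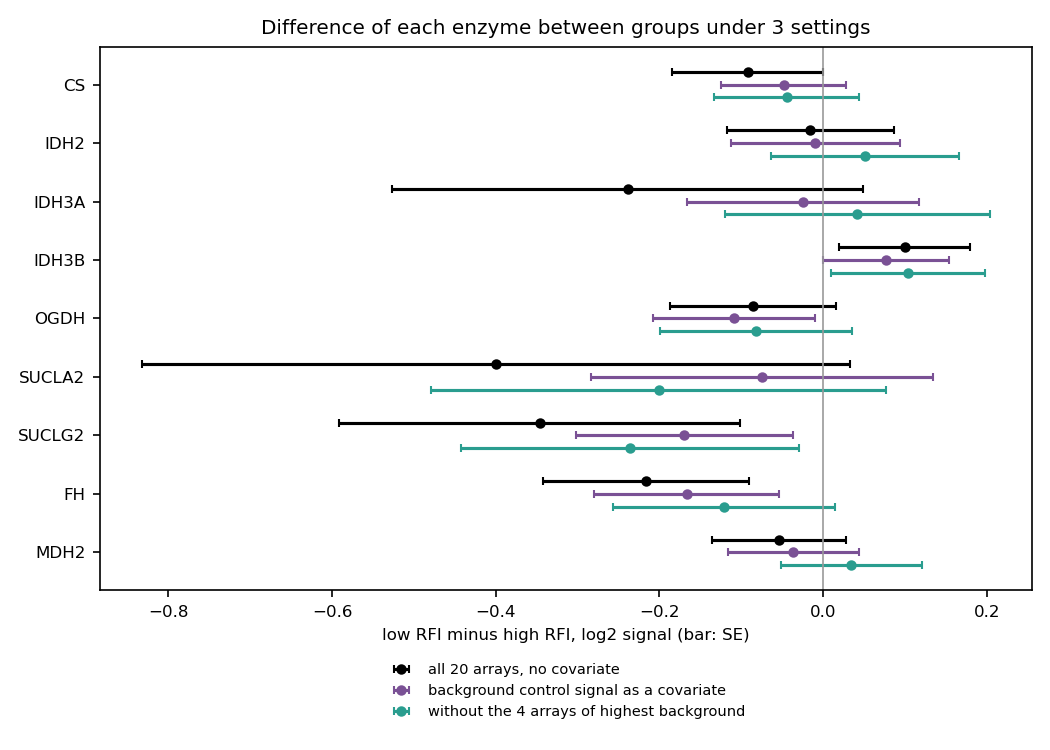
Low RFI minus high RFI difference of the log2 signal for each enzyme, with its SE as the bar, for all arrays, after adjustment for the background control signal, and with the 4 arrays of highest background dropped. IDH3A moves from -0.24 to -0.025 and SUCLA2 from -0.40 to -0.075 with the covariate, while IDH3B stays on the right of 0 in all 3 settings.

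Probe sets of a gene did not all tell the same story across animals, which bears on how far a single one can be read. The 2 bright FH probe sets rose and fell together (r = 0.88, rho = 0.90 over 20 animals, permutation adjusted p = 4.67e-05 and 7e-05 over 14 probe set pairs). The IDH2 probe set of highest mean ran with the next 2 at r = 0.82 and 0.93 (rho = 0.81 and 0.94, the same adjusted p of 4.67e-05 for r by permutation, and 1.87e-04 and 7e-05 for rho). Its relation to the other 2 did not pass, with r = 0.24 (rho = 0.46, permutation adjusted p = 0.506 and 0.102) for one above the background mean on all arrays and r = -0.42 (rho = -0.44, permutation adjusted p = 0.138 and 0.104) for a dim one. For MDH2 the 3 other probe sets gave r = 0.52, 0.79 and 0.65 (rho = 0.42, 0.73 and 0.60, permutation adjusted p for r of 0.0434, 1.05e-04 and 0.00535, and for rho of 0.112, 0.00102 and 0.0155). The lowest of these r fell to 0.22 without the 2 animals farthest from the median of the MDH2 probe set of highest mean. The 2 IDH3B probe sets, both with means above 7, had no relation that passed (r = -0.16, rho = -0.12, permutation adjusted p = 0.717 and 0.652). Values of IDH3B therefore belong to the chosen probe set only.

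Across animals the enzymes split by how they followed the array's background signal. IDH3A (r = -0.90, rho = -0.80), SUCLA2 (r = -0.89, rho = -0.89) and SUCLG2 (r = -0.87, rho = -0.81) ran steeply against it (20 animals, permutation adjusted p = 3e-05 for each r over the 9 enzymes, and 2.1e-04, 9e-05 and 2.1e-04 for rho). Only 0.84%, 0.88% and 1.65% of all tested probe sets had an r as low or lower, against 7.79% for CS and 14.3% for FH. CS followed with r = -0.71 (rho = -0.63, adjusted p = 0.00108 and 0.00855) and FH with r = -0.54 (rho = -0.47, adjusted p = 0.0266 and 0.0543). IDH3B ran the other way, with r = 0.48 (rho = 0.54, adjusted p = 0.0489 and 0.0299), which 15.03% of all tested probe sets reached or passed. MDH2 (r = -0.36, rho = -0.19), OGDH (r = 0.28, rho = 0.40) and IDH2 (r = -0.089, rho = -0.030) had adjusted p-values of 0.152, 0.262 and 0.708 for r and 0.468, 0.108 and 0.902 for rho.

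These relations were then taken apart by group and by array. Within low RFI r was -0.86 for IDH3A, -0.87 for SUCLA2 and -0.88 for SUCLG2, and within high RFI it was -0.95, -0.95 and -0.91. For MDH2 and IDH2 it was -0.66 and -0.62 within low RFI and 0.27 and 0.38 within high RFI, a difference that was not tested. Leaving out the 2 arrays farthest from the median background gave -0.83 for IDH3A, -0.89 for SUCLA2, -0.80 for SUCLG2, -0.53 for CS, -0.49 for FH and 0.56 for IDH3B. Without the 4 arrays of highest background r was -0.63, -0.75 and -0.73 for the steepest 3, but -0.27 for CS and -0.24 for FH. Dropping those arrays also narrows the range of the background signal, which by itself lowers r. How far the CS and FH relations rest on those arrays was therefore not tested. The background signal is a property of the array and not of the muscle alone, and its part in the values of these genes was not tested.

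**Figure D3:**
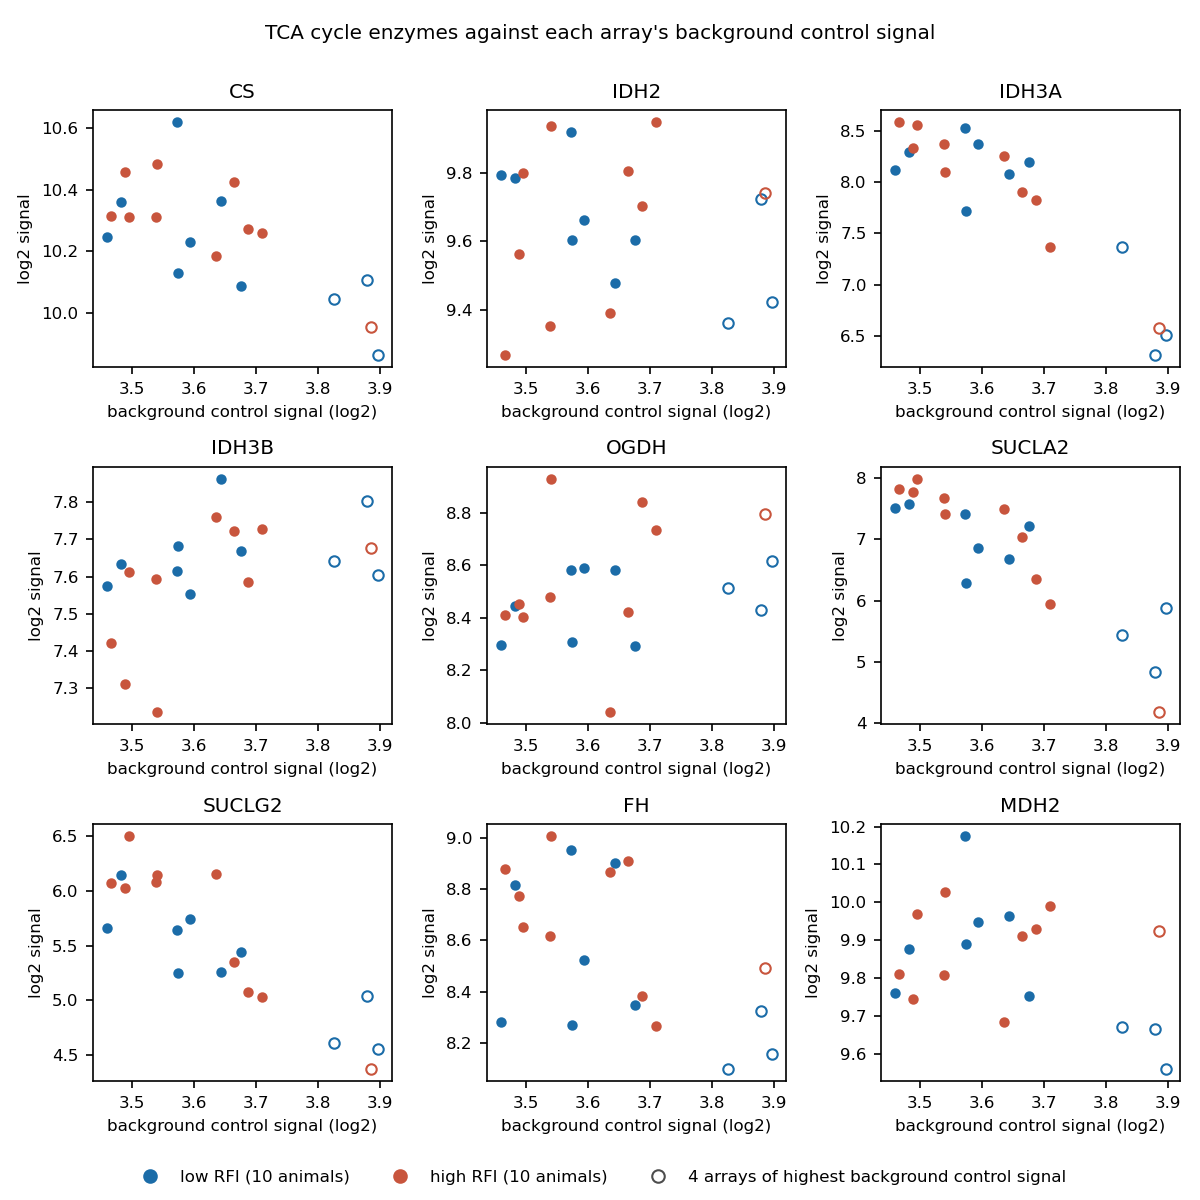
Log2 signal of each enzyme (vertical axes) against the mean background control signal of the same array (horizontal axes, log2), 1 point an animal, with open circles for the 4 arrays of highest background. IDH3A, SUCLA2 and SUCLG2 fall steadily from left to right in both groups, with r between -0.90 and -0.87 over all animals. IDH2, OGDH and MDH2 show no clear slope over all animals. For IDH2 and MDH2 r was -0.62 and -0.66 within low RFI, and 0.38 and 0.27 within high RFI.

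Among the 36 pairs of enzymes, 12 were related across the 20 animals at a permutation adjusted p under 0.05 for both r and rho, all in the positive direction. CS, IDH3A, SUCLA2, SUCLG2 and FH formed a block in which all 10 pairs passed, with r from 0.59 to 0.91 and rho from 0.55 to 0.91 (permutation adjusted p between 1.2e-04 and 0.0181 for r, and up to 0.0384 for rho). IDH3A and SUCLA2 were closest (r = 0.91, rho = 0.88), then SUCLA2 and SUCLG2 (r = 0.90, rho = 0.91), each with an adjusted p of 1.2e-04 for r and 1.8e-04 for rho by permutation. For these 10 pairs r ran from 0.57 to 0.89 within low RFI and from 0.51 to 0.99 within high RFI. The groups are parts of the same 20 animals in which the block was found, and no test was run within them. Leaving out the 2 farthest animals of each pair left r at 0.52 or more. All 5 genes of the block are also the ones that ran against the background signal, and with that signal held constant the median r of the 10 pairs fell from 0.69 to 0.29.

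With the background signal held constant the pattern was a different one. CS and FH still ran together (partial r = 0.65, from 0.77), as did IDH3A with SUCLA2 (0.56, from 0.91) and SUCLA2 with SUCLG2 (0.54, from 0.90). CS with SUCLG2 (0.092) and CS with SUCLA2 (0.11) did not. Without the 4 arrays of highest background, SUCLA2 with SUCLG2 stood at r = 0.89 and IDH3A with SUCLA2 at 0.86, while CS with SUCLG2 stood at 0.22. These partial values are given as a description, with no test.

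MDH2 made the other pairs that passed. With IDH2 it had r = 0.64 and rho = 0.64 (permutation adjusted p = 0.00868 and 0.0205), with r = 0.57 within low RFI, 0.85 within high RFI and 0.66 given the background signal. With CS it had r = 0.66 and rho = 0.56 (permutation adjusted p = 0.00833 and 0.0384), with r = 0.91 within low RFI and 0.066 within high RFI, a difference that was not tested. It fell to 0.39 without the 2 animals farthest from the CS median, and stood at 0.58 without the 4 arrays of highest background and at 0.62 given the background signal. OGDH and MDH2 reached r = 0.46 (rho = 0.44, permutation adjusted p = 0.0998 and 0.118) and 0.63 given the background signal. IDH3B had an r below 0 with all 8 other enzymes, none of which passed.

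**Figure D4:**
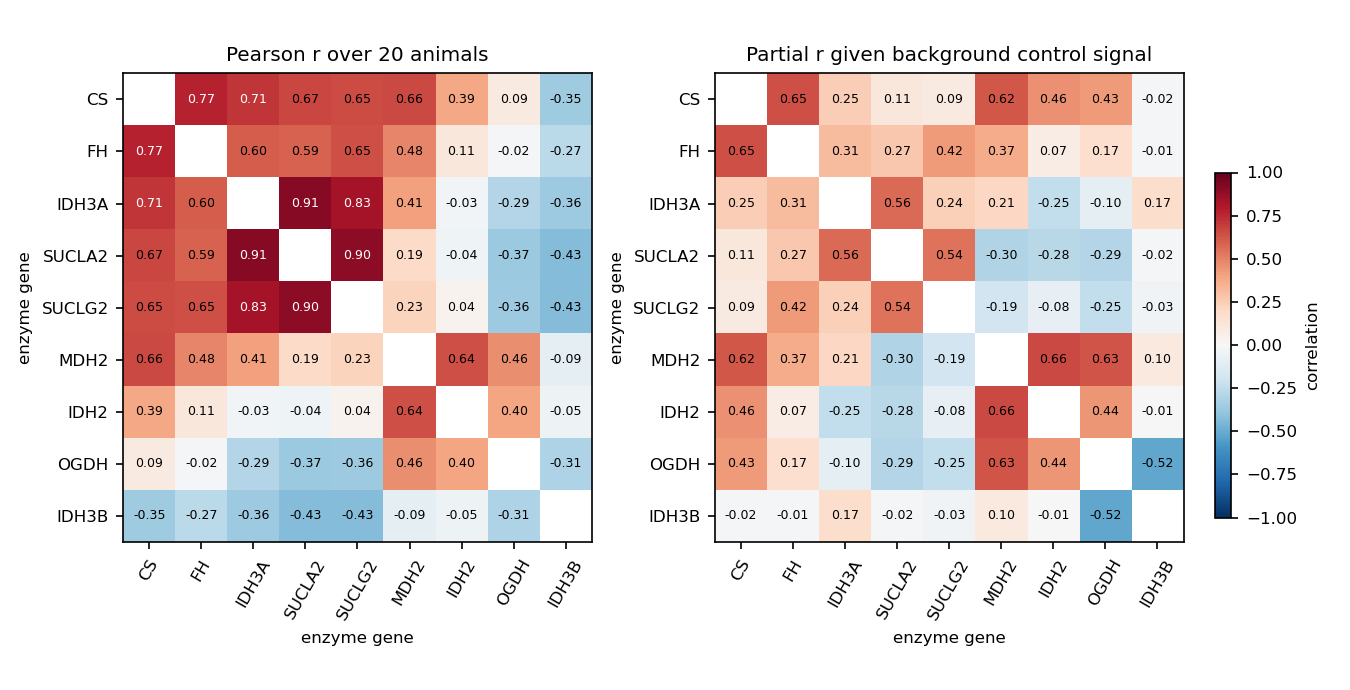
Pearson r of each pair of enzymes over 20 animals (left) and the partial r with the array's background control signal held constant (right), with enzyme genes on both axes. The upper left block of CS, FH, IDH3A, SUCLA2 and SUCLG2 pales on the right, where CS with FH stands at 0.65 (0.77 on the left) and MDH2 with IDH2 at 0.66 (0.64 on the left).

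MYH7, the slow myosin heavy chain that marks oxidative type I fibres, was set beside the enzymes as a gene chosen after the values were seen. IDH2 followed MYH7 most closely across the 20 animals (r = 0.61, rho = 0.61, permutation adjusted p = 0.0392 and 0.0431 over the 9 enzymes), with r = 0.56 within low RFI and 0.67 within high RFI. CS came next (r = 0.57, rho = 0.53, permutation adjusted p = 0.0409 and 0.0760), with 0.63 and 0.45 within the groups and 0.74 given the background signal. Without the 2 animals farthest from the MYH7 median r was 0.59 for IDH2 and 0.73 for CS. IDH3A, SUCLA2 and SUCLG2, which varied most, had r of 0.11, 0.10 and 0.16 with MYH7 (rho = 0.098, 0.11 and 0.13, permutation adjusted p of 0.757, 0.757 and 0.744 for r and 0.767 for each rho). MYH7 itself differed by -0.090 ± 0.14 (SE) between the groups. The list of 10 slow fibre genes had a lower mean in low RFI for 10 of 10, with a median difference of -0.10 and 0 that passed. Of all genes with a tested probe set, 50.8% had a lower mean in low RFI. With the background covariate 9 of the 10 were lower, with a median of -0.0785. The slow fibre genes of smallest p were PLN, which restrains the calcium pump (-0.41 ± 0.34), MYOZ2, a Z disc protein (-0.43 ± 0.38), and MYL3, a slow myosin light chain (-0.12 ± 0.17). With the background covariate these were -0.27, -0.23 and -0.094. With the mean slow fibre level as a covariate SUCLA2 differed by -0.22, IDH3A by -0.12 and CS by -0.046. SUCLG2 then differed by -0.24, FH by -0.17, MDH2 by -0.034 and IDH2 by 0.019. OGDH (-0.0935) and IDH3B (0.099) did not shrink. The slow fibre genes themselves had r with the background signal between -0.65 (MYOZ2) and 0.0010 (TNNI1). The part of that signal in the values adjusted for slow fibre level was not tested.

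The remaining enzymes of the cycle gave a like picture. Those tested were 6, with 5 of them lower in low RFI, and 0 passed the adjusted or the unadjusted threshold of 0.05. DLD, the dehydrogenase subunit shared by the 2-oxoglutarate and pyruvate complexes, differed by -0.47 ± 0.34 (SE; limma adjusted p = 0.998) and by -0.21 with the background covariate. Its r with the background signal was -0.90, as for IDH3A. DLST, the core of the OGDH complex, differed by -0.024 ± 0.086. SUCLG1, the alpha subunit that SUCLA2 and SUCLG2 share, differed by 0.024 ± 0.10. Of succinate dehydrogenase, the step between the ligase and fumarase, SDHA differed by -0.050 ± 0.083, SDHB by -0.12 ± 0.15 and SDHD by -0.054 ± 0.14.

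Upstream of the cycle, 7 of 9 tested genes of pyruvate entry were lower in low RFI, with a median difference of -0.074 and 0 that passed the adjusted threshold. PDK4, the kinase that shuts pyruvate dehydrogenase when fat is burned, differed by -0.68 ± 0.42 (SE), PDHA1, a catalytic subunit of that complex, by -0.27 ± 0.21, and PDK3 by -0.18 ± 0.15 (limma adjusted p = 0.998 for each). With the background covariate these were -0.40, -0.12 and -0.097. Among cytosolic counterparts, refilling enzymes and shuttle carriers 10 of 17 were lower, with a median of -0.029. The members of smallest p were all higher in low RFI: SLC25A1, the citrate carrier, by 0.25 ± 0.14, PCK2, mitochondrial phosphoenolpyruvate carboxykinase, by 0.18 ± 0.11, and OGDHL, a relative of OGDH whose probe set (mean 3.37) lay below the background mean, by 0.11 ± 0.078. None passed (limma adjusted p = 0.998).

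Genes that set or mark mitochondrial content were lower in low RFI for 11 of 14, with a median of -0.028, and for 7 of 14 with the background covariate. TFAM, which packages mitochondrial DNA, differed by -0.40 ± 0.12 (SE; limma unadjusted p = 0.00328, adjusted p = 0.998), PPARGC1A, the coactivator that drives mitochondrial biogenesis, by -0.73 ± 0.51 and GABPA, a nuclear respiratory factor, by -0.16 ± 0.11. The TFAM probe set, at a mean of 3.80, was close to the background mean, and that of GABPA, at 2.30, lay below it. Fast fibre genes were lower for 7 of 9 with a median of -0.032, and for 4 of 9 with the background covariate. TNNC2 (-0.049 ± 0.064), TNNT3 (-0.047 ± 0.075), both fast troponins, and MYH4 (-0.063 ± 0.12), a fast myosin, had the smallest p. None of those lists held a gene that passed the adjusted threshold.

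**Figure D5:**
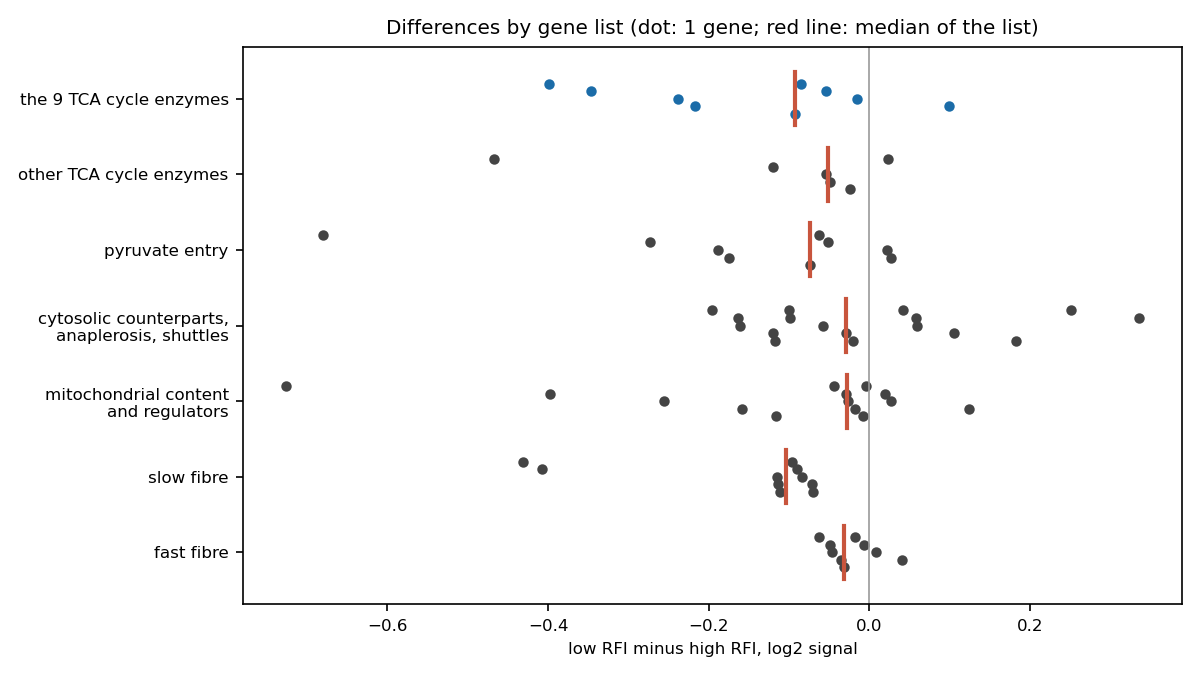
Low RFI minus high RFI difference of the log2 signal (horizontal axis) for the 9 enzymes and for the genes of 6 related lists (rows), 1 dot a gene, with the median of each list as a red line. Every median lies at or left of 0, from -0.028 for mitochondrial content to -0.10 for slow fibre genes, and no gene shown passed the adjusted threshold.

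The genes whose signals most resembled the mean standardised level of the 9 enzymes, among 8619 genes above the background mean, were GOT2, ANK2, GPN1, MRPS16 and SLC16A1. GOT2, the mitochondrial aspartate aminotransferase, which exchanges oxaloacetate with aspartate, came first with r = 0.89 and rho = 0.92 over the 20 animals. ANK2 followed at r = 0.87, GPN1 at 0.87, MRPS16, a mitochondrial ribosomal protein, at 0.87 and SLC16A1, a carrier of lactate and pyruvate, at 0.86. The mean level of the 9 had r = -0.72 with the background signal, and these genes had r between -0.83 and -0.52 with it, so they share that axis as well. They were picked for their likeness, and no test is given.

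Markers of other cell types were set beside the group differences. All 4 measured macrophage markers were higher in low RFI. Their mean level ran from 4.94 to 5.70 in low RFI and from 4.42 to 5.27 in high RFI. An unadjusted p under 0.05 in limma was reached by 3 of them, and by 3.91% of all tested probe sets. Of these 3 markers MSR1 had a mean of 3.61, just under the background mean of 3.64. Fibroblast and tendon markers were higher for 6 of 7, with levels from 7.48 to 7.87 and from 7.30 to 7.92. Adipocyte markers were higher for 5 of 7, from 6.17 to 7.55 and from 6.16 to 7.52. Endothelial markers were split 3 to 3, from 5.43 to 6.15 and from 5.61 to 6.13. Of 3 red blood cell markers 2 were lower, with levels from 3.55 to 4.30 and from 3.56 to 4.47. The marker with an unadjusted p under 0.05 was SLC4A1, which was higher in low RFI (0.19 ± 0.082, limma unadjusted p = 0.0292). Its mean of 2.90 lay below the background mean. All 3 liver markers were higher, from 3.51 to 4.17 and from 3.52 to 4.04, but 2 of the 3 were lower with the background covariate. None of these lists held a marker that passed the adjusted threshold, and their part in the values of the enzymes was not tested beyond the adipocyte level, which as a covariate left CS at -0.094, FH at -0.21 and SUCLA2 at -0.37.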

How the data were processed

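Per the labels' protocols, total RNA was reverse transcribed, biotin-labelled and hybridised to 1-colour arrays. The authors deposited 1 log2 signal per probe set and array, and the log2 scale was read from the range of 0.14 to 14.4. The submitters' processing notes list the scanner software GCOS 1.1.1. Probe summary, background correction and normalization are not given in the sources used here. Array means (3.33 to 3.35) were nearly equal, and the values were tested as deposited.

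Of 47845 probe sets, 123 controls were left out, and 33405 with a mean above the 30th percentile (1.75) were tested. Symbols came from the platform annotation: 26426 probe sets had a symbol and 21419 had none. Dim signals can be compressed towards background, so their differences may not give the true ratio, which was not tested here. Sequences and genome positions are not used here. Precision is limited by how many arrays there are.

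The test between groups was limma's (version 3.58.1 in R 4.3.3, functions lmFit and eBayes, 2-sided), fitted to all tested probe sets with Benjamini-Hochberg adjustment. Correlations and single differences used 100000 permutations (Python 3.11.15; figures with matplotlib 3.10.9), adjusted within each family, the smallest p possible being 1e-05. The fit was tested on simulated data. Named were all 9 enzymes, the remaining enzymes of the cycle, the 3 genes of smallest p in each other list and the 5 most alike genes. The members, the lists, the comparison with MYH7 and several alternatives were chosen with earlier results of these data known. Tried were other filters, median centring, cyclic loess, array weights, covariates, probe set means and leaving out arrays.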

Additional observations from a re-analysis of the deposited data

How the results depend on the processing

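In limma 0 probe sets passed, except that 1 did without the 4 arrays of highest background (smallest adjusted p = 0.00264) and 1 without high RFI replicate 9 (0.00364). Leaving out 1 animal at a time gave 0 to 1. None of these was a TCA cycle enzyme. The median difference of the 9 enzymes stayed between -0.14 and -0.072 without single animals and between -0.10 and -0.044 under the other settings. The number of enzymes lower in low RFI was 7 to 8 without single animals. It was 8 with median centring, the background covariate or the adipocyte covariate. With cyclic loess, array weights or the slow fibre covariate it was 7, and with the mean of all probe sets of a gene 6. Once the 4 arrays of highest background were dropped it was 5. There the sign turned for IDH2 (0.051), IDH3A (0.042) and MDH2 (0.035), with fewer arrays and the cause not tested.

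Of 261 differences of single enzymes under other settings or tests, 246 kept their direction, 15 turned and 0 passed the threshold. The 246 include differences that could not turn. These are the permutation test of each enzyme, which uses the main difference, and the probe set means of CS, SUCLA2 and SUCLG2, each with a single probe set. IDH2 turned with cyclic loess (0.014), array weights (0.015), the slow fibre covariate (0.019), the mean of its probe sets (0.016) and without single animals, where it ran from -0.058 to 0.017 (0.0016, 0.00080, 0.017 and 0.016 without high RFI replicates 1, 3, 4 and 5, and 0.0018, 0.015 and 0.0080 without low RFI replicates 6, 7 and 9). OGDH turned with the mean of its probe sets (0.028). Without single animals SUCLA2 ran from -0.71 (without high RFI replicate 9) to -0.21 (without low RFI replicate 10), and IDH3A from -0.40 to -0.079, without the same 2 animals. No paired analysis was possible because the labels pair no animals. Dim probe sets, near the background mean of 3.64, limit what can be read from the second probe sets of IDH3A and OGDH. A p that misses the threshold does not show that groups did not differ: the 95% interval of SUCLA2 runs from -1.30 to 0.50.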
